A study of Mus musculus with 20 samples.

Results

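The ErbB receptors and their ligands were followed across breast tumors that a rat neu (HER2) oncogene, neuT, had initiated. The members were chosen by name and were 10 of the 43346 genes in the deposited count table: the receptors Erbb2, Egfr, Erbb3 and Erbb4 and the ligands Areg, Ereg, Nrg1, Tgfa, Hbegf and Btc. All 10 had 1 row each. In mm10 coordinates, Erbb2 lies at 98412470 to 98437716 and Egfr at 16752203 to 16918158 of Chr11, Erbb3 at 128567523 to 128589652 of Chr10 and Erbb4 at 68032186 to 69108059 of Chr1. Areg (91139615 to 91148432), Ereg (91074617 to 91093649) and Btc (91357261 to 91402994) are neighbours on Chr5, Nrg1 lies on Chr8, Tgfa at 86195251 to 86275639 of Chr6 and Hbegf on Chr18. The table lists 1 length per gene, such as 12355 bases for Erbb4, which was taken as the exon length. RNA came from 20 late-stage tumors, 1 from each of 20 female F1 mice, the progeny of neuT-positive BALB/c males and wildtype FVB/J females. All 20 mice carried the transgene, so the series holds no untreated or non-transgenic tissue to serve as a background. Of the tumors, 9 carried the label Lo and 11 the label Hi; what these labels mean is not given in the sources used here. Samples are named by label and number, such as Lo 11. The numbers do not run without gaps, and each tumor is a separate animal.

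The ErbB family comprises 4 receptor tyrosine kinases that pair with each other at the cell surface. Egfr binds Areg, Tgfa, Ereg, Hbegf and Btc; Erbb3 and Erbb4 bind neuregulins such as Nrg1, and Erbb4 also binds Btc, Hbegf and Ereg. Erbb2 has no known ligand of its own and acts as the preferred partner of the others, whereas Erbb3 has little kinase activity and passes its signal on through the regulatory subunit of PI3-kinase. Most ligands are made as membrane-bound precursors that sheddases such as Adam17 release. In the mammary gland, Areg is known as the ligand that mediates estrogen-driven duct growth and Erbb4 as a receptor of late pregnancy and lactation.

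The total count of a tumor lay between 38765682 and 65465755, with 6.29% to 27.7% of them on Yam1 and AY036118, a pair of genes that overlap a ribosomal RNA locus. The r of log2 CPM between any pair of tumors was 0.966 to 0.991, and none was a repeat of another. Levels within the text are RPKM (counts scaled to the listed gene length in kilobases and to the total count of the tumor), which allows genes of different length to be set side by side. Differences between tumors are given as CPM (counts scaled to a library size adjusted by TMM), which does not. Reads of the rat neu transgene have no row of their own, and whether any were counted in the Erbb2 row is not known. Any that were cannot be told apart there from those of mouse Erbb2. The tumors are pieces of whole tissue, in which fewer cells of a type and less RNA per cell cannot be told apart.

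All 10 genes were detected in all 20 tumors, across a wide range of levels. Erbb3 was the highest, with 50.8 RPKM in the lowest tumor (Hi 8), a median of 64.9 and 69.2 in the highest (Lo 7). Erbb2 followed at 27.0 (Lo 4), 37.6 and 47.6 RPKM (Hi 10). The Erbb3 row lay above the Erbb2 row in all 20 tumors, by 1.36 to 2.22 times with a median of 1.70, and the ranges did not overlap. Egfr was at 3.74 (Lo 11), 5.18 and 8.10 RPKM (Hi 5). The lowest receptor was Erbb4, at 0.192 (Lo 2), 0.522 and 1.44 RPKM (Hi 3). In each tumor, Erbb3 made up 54.8% to 65.3% of the summed RPKM of the 4 receptors, Erbb2 29.4% to 40.4%, Egfr 3.55% to 7.35% and Erbb4 0.210% to 1.33%. These are receptor RNA levels, with no measure of protein.

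Among the ligands, Hbegf (a heparin-binding ligand of Egfr and Erbb4) was the highest, at 6.95 (Hi 5), 10.2 and 15.9 RPKM (Hi 11). Tgfa, a ligand of Egfr, came next at 5.09 (Hi 4), 7.35 and 8.99 RPKM (Lo 8), and lay below Hbegf in 18 of 20 tumors, with overlapping ranges. Btc was at 1.36 (Lo 8), 2.43 and 3.22 RPKM (Hi 2). Areg was at 0.481 (Hi 5), 2.22 and 10.7 RPKM (Lo 11). Btc and Areg were neighbours in the order of medians and did not differ beyond their spread, since Btc was the higher in 10 of 20 tumors. Nrg1 was at 0.0828 (Lo 3), 0.373 and 0.852 RPKM (Hi 5), from 10 to 90 counts. Its row covers 31818028 to 31918203 of Chr8, whereas the gene in GENCODE M21 spans 31814551 to 32884029, so that the value may cover part of the gene only. Ereg, the lowest, had 2 to 33 counts per tumor, a median of 0.0297 RPKM and a highest of 0.151 RPKM (Hi 8); it did not pass the filter on low counts and entered no test, except without that filter.

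**Figure D1:**
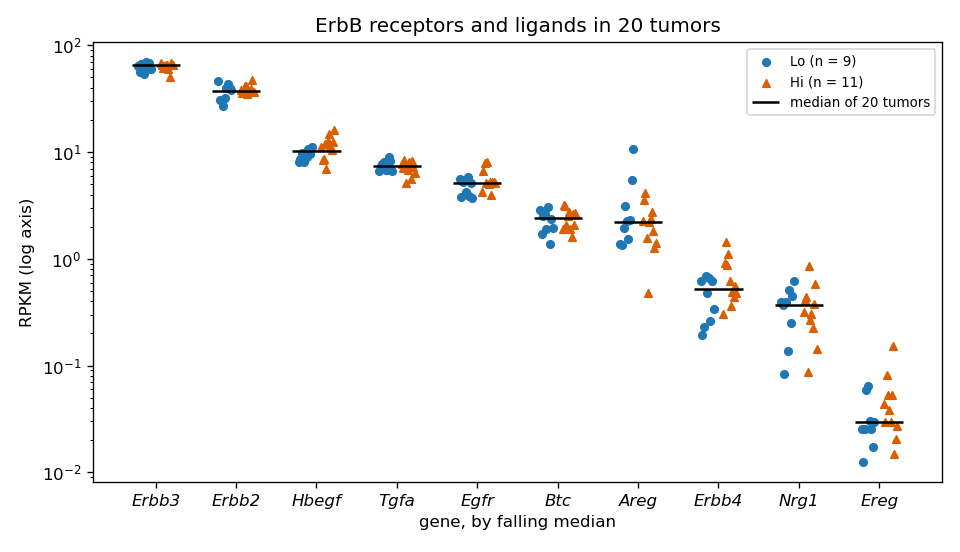
Each point is 1 tumor, the x axis gives the 10 genes by falling median and the y axis RPKM on a log axis; circles are the 9 Lo and triangles the 11 Hi tumors, and the black line is the median of all 20. Erbb3 and Erbb2 stand above all other members in all tumors, and Areg, Erbb4, Nrg1 and Ereg have the widest spread.

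The receptors and ligands differed in how much they varied between tumors. The spread was measured as the biological coefficient of variation from edgeR, the variation beyond counting error, and set against the trend for genes of the same abundance. Erbb3 varied by 0.103, a ratio of 0.647 to the trend, and 20.7% of the 17492 genes after filtering had a lower ratio. Erbb2, at 0.118, had a ratio of 0.777 and 47.2% of genes below it, which is near the middle of all genes. Tgfa (0.145, ratio 0.951) and Btc (0.221, ratio 0.878) also lay under the trend, though with a higher ratio than 70.7% and 62.5% of genes. Egfr (0.192, ratio 1.26, above 88.8% of genes) and Hbegf (0.215, ratio 1.20, above 86.7%) lay above it. The widest spread was that of Areg, at 0.609 with a ratio of 2.12 and 98.1% of genes below it. Erbb4 (0.454, ratio 1.83, 96.9%) and Nrg1 (0.492, ratio 1.43, 92.7%) followed. In CPM, the highest tumor was above the lowest by 25.0 times for Areg, 6.48 times for Erbb4, 2.21 times for Egfr, 1.57 times for Erbb2 and 1.41 times for Erbb3.

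**Figure D2:**
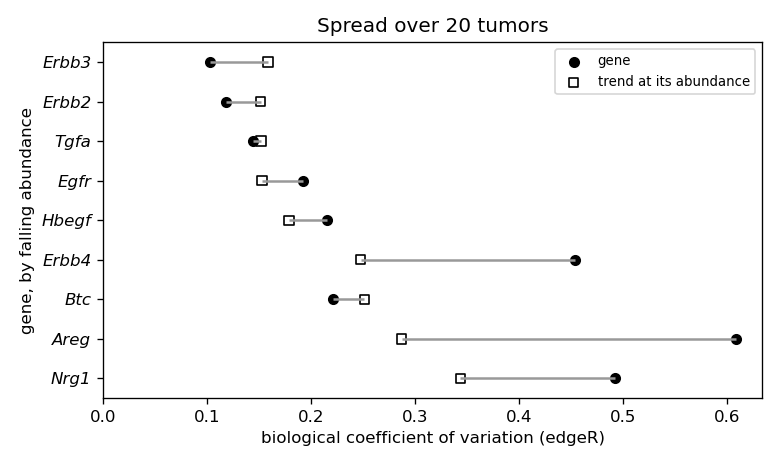
The x axis is the biological coefficient of variation over the 20 tumors and the y axis the 9 members that passed the filter, by falling abundance; filled points are the genes and open squares the trend at each gene's abundance. Areg, Erbb4 and Nrg1 lie far to the right of their squares, and Erbb3 lies to the left of its square.

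The design then asks whether members rise and fall together from tumor to tumor. For each of the 9 members that passed the filter, its log2 CPM was used as a covariate in edgeR's quasi-likelihood fit of all other genes, with p-values adjusted over all 17491 of them. Of the 36 pairs tested (of 45 possible), 2 passed an adjusted p of 0.05. Each pair was read with the member that comes first in the opening list as covariate, and the reverse fit was not read. As a background, the percentage of all genes that passed was 0.00572% with Areg and with Nrg1, 0.0172% with Erbb3, 0.0286% with Tgfa, 0.12% with Erbb2, 1.23% with Hbegf, 3.36% with Btc, 5% with Egfr and 5.2% with Erbb4. Over the 36 pairs the median Pearson r was 0.05, and 19 were positive. The median absolute r was 0.197, against 0.209 over all pairs of the genes tested.

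The first pair was Egfr with Erbb4. Egfr ranged from 40.5 to 67.4 CPM in the Lo tumors, with a median of 57.2, and from 45.7 to 89.5 in the Hi tumors, with a median of 57.6. Erbb4 ranged from 2.61 to 9.35 CPM in the Lo tumors, with a median of 6.67, and from 3.64 to 16.9 in the Hi tumors, with a median of 6.62. Hi 3 and Hi 5 were the 2 highest tumors for both genes, and the groups overlapped for both. Erbb4 rose with Egfr by 1.98 log2 units per log2 unit (standard error 0.318, adjusted p = 0.00179 from edgeR). Pearson's r was 0.78 (permutation p = 9e-05) and Spearman's rho was 0.77 (permutation p = 0.00019). The r was 0.65 without Hi 3 and Hi 5, which lay farthest from the median of Egfr, 0.64 within Lo and 0.85 within Hi. Lo 3 stood apart from the trend, with 64.3 CPM of Egfr beside 3.05 CPM of Erbb4. Leaving out any 1 tumor gave an r of 0.73 to 0.88, and the pair remained past the threshold each time (highest adjusted p = 0.00839). Without both Hi 3 and Hi 5 the adjusted p was 0.049, and with the dosage of Chr4, described further on, as a second covariate it was 0.117 (slope 1.23).

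Egfr with Btc, which encodes one of its ligands, was the second pair. Btc ranged from 3.66 to 8.49 CPM in the Lo tumors, with a median of 6.95, and from 4.69 to 8.63 in the Hi tumors, with a median of 6.94. The lowest tumor was Lo 8 for both genes. Btc rose with Egfr by 0.88 log2 units per log2 unit (standard error 0.185, adjusted p = 0.00877 from edgeR). Pearson's r was 0.77 (permutation p = 6e-05) and Spearman's rho was 0.82 (permutation p = 5e-05). It was 0.86 without Hi 3 and Hi 5, 0.92 within Lo and 0.70 within Hi. The pair passed with each tumor left out in turn, with an adjusted p of up to 0.039 (without Lo 8), and did not pass with the dosage of Chr4 as a second covariate (slope 0.90, adjusted p = 0.0699).

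Erbb4 with Btc had a Pearson's r of 0.60 and an adjusted p of 0.0785 from edgeR, and did not pass the threshold. With DESeq2 it did (adjusted p = 0.0376), and it also passed in edgeR when Lo 3 was left out (adjusted p = 0.0197). No pair with Erbb2 passed the threshold. The r of Erbb2 was -0.18 with Egfr (adjusted p = 0.760), 0.09 with Erbb3 (adjusted p = 0.903) and 0.10 with Erbb4 (adjusted p = 0.968), all from edgeR. Its largest r were -0.37 with Tgfa (adjusted p = 0.411) and -0.33 with Btc (adjusted p = 0.450), also from edgeR. The r of Hbegf was -0.50 in the Nrg1 fit (adjusted p = 0.597) and -0.45 in the Egfr fit (adjusted p = 0.231), neither of which passed.

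**Figure D3:**
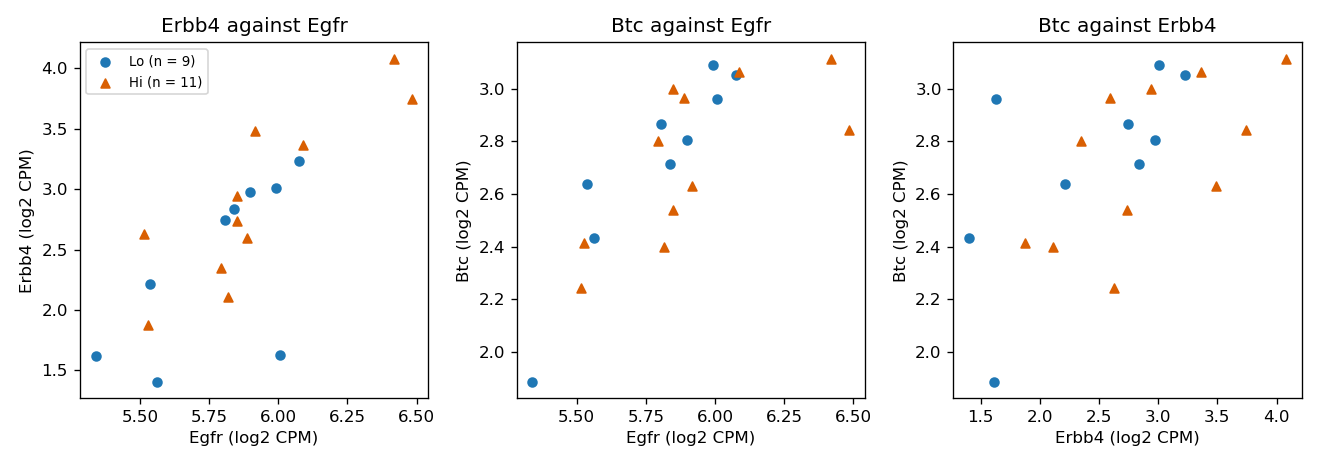
Each point is 1 tumor and both axes are log2 CPM, with circles for the 9 Lo and triangles for the 11 Hi tumors. Erbb4 and Btc are higher where Egfr is higher (r of 0.78 and 0.77), and 1 Lo tumor (Lo 3) lies below the Egfr and Erbb4 trend.

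**Figure D4:**
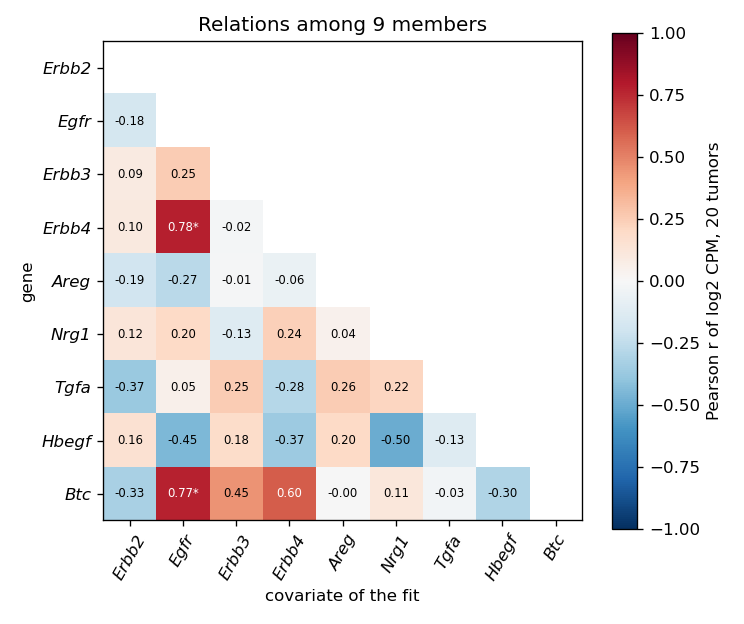
Each cell gives the Pearson r of log2 CPM over the 20 tumors for 1 of the 36 pairs, with the covariate of the fit on the x axis and the other gene on the y axis; red is positive, blue negative, and an asterisk marks the 2 pairs past the threshold. Both marked cells are in the Egfr column, and the cells of Erbb2 lie between -0.37 and 0.16.

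Egfr and the 2 genes paired with it are shown with the 250 bases before their start, from RefSeq, on the strand of the gene. RefSeq windows were found for 6 of the 10 members. Capitals mark matches, on either strand, to the GC box (GGGCGG), the CCAAT box, the TATA box (TATAAA), the cAMP response element (TGACGTCA), the AP-1 motif (TGANTCA) or the E-box (CACGTG).
Egfr (GRCm38.p6, chr11:16751953-16752202, + strand): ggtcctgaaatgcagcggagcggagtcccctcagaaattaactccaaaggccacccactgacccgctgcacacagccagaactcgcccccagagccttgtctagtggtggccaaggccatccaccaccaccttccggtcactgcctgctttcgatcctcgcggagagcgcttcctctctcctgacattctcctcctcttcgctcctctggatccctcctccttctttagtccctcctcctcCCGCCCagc
Erbb4 (GRCm38.p6, chr1:69108060-69108309, - strand): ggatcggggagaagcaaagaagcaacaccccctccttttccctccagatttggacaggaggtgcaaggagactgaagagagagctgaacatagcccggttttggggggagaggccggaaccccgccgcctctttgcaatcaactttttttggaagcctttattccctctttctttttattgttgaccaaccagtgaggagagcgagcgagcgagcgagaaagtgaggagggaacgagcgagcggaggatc
Btc (GRCm38.p6, chr5:91402995-91403244, - strand): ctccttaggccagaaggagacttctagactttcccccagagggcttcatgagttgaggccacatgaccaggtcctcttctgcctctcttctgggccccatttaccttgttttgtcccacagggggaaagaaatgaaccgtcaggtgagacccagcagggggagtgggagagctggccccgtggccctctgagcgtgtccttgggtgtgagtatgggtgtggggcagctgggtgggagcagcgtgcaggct
The Egfr window holds 1 match, to GGGCGG on the other strand, which 32.7% of the 32851 windows hold at least once, and no match to the other letters was found in these 3 windows. The windows are 60.8%, 54% and 59.6% G and C, against a median of 52.4% over all windows.

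The genes most like a member in their pattern were read as the 3 with the highest r over the 20 tumors, among 13824 genes whose log2 CPM averaged 1 or more. For Erbb2 these were Cuedc1 (r = 0.82), Gm16159 (0.80) and Iqsec2 (0.79). Erbb3 was followed by Klhdc1 (0.79), Arid5b (0.79) and Arrb1 (0.79). Egfr had Tmtc1 (0.89), Ipp (0.88) and Macf1 (0.88), and Erbb4 had 1110037F02Rik (0.93), Rnf20 (0.92) and Stx17 (0.91). Of these last 6 genes, 5 lie on Chr4 and none on Chr11 or Chr1, where Egfr and Erbb4 lie. Btc was closest to Cd55 (0.89), Zfp185 (0.88) and Serpinb5 (0.88), and Areg to Slc7a2 (0.76), Gm6166 (0.74) and Fgfr2 (0.68). Hbegf was closest to Cidea (0.86), Il34 (0.85) and Tesc (0.83), Tgfa to Plk4 (0.82), 4933404O12Rik (0.80) and Npnt (0.79), and Nrg1 to Alpl (0.79), Fads1 (0.77) and Ikzf1 (0.76).

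In the fits with Erbb2 as covariate, the other genes of the pathway were read from lists of other ligands, sheddases, signal transducers, inhibitors, targets, Chr11 neighbours and hormone receptor genes. None of the 72 genes tested (of 82 listed) passed an adjusted p of 0.05 by edgeR or by DESeq2, while 8 had an unadjusted p under 0.05 by edgeR and 6 by DESeq2. Over all genes, 0.12% passed, and 16.5% had an unadjusted p under 0.05 by edgeR, against 11.1% of the 72. The signal transducers included Grb7, a neighbour of Erbb2 on Chr11, at a median of 16.0 RPKM. Among the inhibitors, Dusp6, which dephosphorylates ERK, was at 161 to 323 RPKM with a median of 208. Of the Chr11 neighbours, Mien1, whose row overlaps that of Erbb2, was at 56.5 to 88.8 RPKM.

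Some pathway genes varied with Egfr, Erbb4 or Btc, and those below were named after their values were seen. In the Egfr fit, where 5% of all genes passed, 4 of 25 signal transducers passed. Pik3r1, the regulatory subunit of PI3-kinase, rose with Egfr (slope 0.77, adjusted p = 0.0103 from edgeR), at 147 to 334 CPM. Src, Hras and Map2k2, which act in the pathway from receptor to ERK, fell (slopes -0.47, -0.54 and -0.34). Lrig3 was the 1 of 17 inhibitors that passed, rising (slope 0.64), and Stard3 the 1 of 7 tested Chr11 neighbours, falling (slope -0.41). In the Erbb4 fit, where 5.2% passed, Pik3r1 rose (slope 0.30) and Src, Hras, Map2k1 and Stard3 fell. In the Btc fit, where 3.36% passed, Pik3r1 and Errfi1, an inhibitor of Egfr, rose (slopes 0.69 and 0.54) and Hras and Etv4 fell. Errfi1 lies on Chr4. No ligand outside the members (0 of 3 tested) and no sheddase (0 of 8) passed by edgeR in these 3 fits. At an unadjusted p under 0.05 there were 0 ligands, and 2, 3 and 2 sheddases with Egfr, Erbb4 and Btc. Over all genes the share at this threshold was 20.3%, 19.7% and 19.2% in the same fits.

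Markers of other cell types were read in the same fits. The luminal epithelial markers had a summed level of 1437 to 2306 RPKM, of which Epcam alone gave 447 to 647. Krt19 of this list was far lower, at 4.69 to 27.9 RPKM with a median of 15.7. The basal keratins Krt5 and Krt14 were low in most tumors, with medians of 0.477 and 0.0994 RPKM, though up to 13.2 and 13.1 RPKM. Acta2 of the basal and myoepithelial list had a median of 15.8 RPKM, near that of Krt19. The summed levels ranged from 67.8 to 252 RPKM for fibroblasts, 174 to 413 for macrophages and 15.3 to 33.7 for leukocytes, and those of Lo and Hi tumors overlapped in each list. Of 405 relations of a marker and a member tested, 9 passed, and they involved 6 distinct markers. They were 4 of 45 markers with Egfr and 5 of 45 with Erbb4, in fits where 5% and 5.2% of all genes passed. With Egfr, Trp63 (slope 1.33, adjusted p = 0.00987 from edgeR) and Pdgfra (slope 0.89) rose, and Krt18 (slope -0.69) and Cd68 (slope -0.52) fell. With Erbb4, Trp63 (slope 0.63, adjusted p = 0.000418 from edgeR), Pdgfra, Ptprc and Lalba rose, and Krt18 fell. Each was the only marker of its list that passed with that member. The median slope had the other sign over the 4 basal and myoepithelial markers tested (-0.02 with Egfr, -0.05 with Erbb4), which include Trp63. So had that of the 6 macrophage markers, which include Cd68, at 0.05 with Egfr. In the other lists concerned, the median slope had the sign of the marker that passed. It was 0.34 with Egfr and 0.21 with Erbb4 for fibroblasts, and -0.11 and -0.085 for luminal epithelium. With Erbb4 it was 0.37 for milk-producing epithelium and 0.10 for leukocytes. Leaving out the pair of tumors most distant from a member's median, the count was 4. The part of these cells in the relations of Egfr and Erbb4 was not tested. No marker passed with the other members. At an unadjusted p under 0.05 by edgeR there were 6 of 6 fibroblast markers with Nrg1, where 7.48% of all genes were. With Tgfa there were 4 of 4 tested adipocyte markers, where 7.72% of all genes were. These lists were picked after their values were seen.

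The tumors of this model lose or gain chromosomes, so each member was set against the dosage of its own chromosome, the median centred log2 CPM of the chromosome's other genes relative to all autosomes. No member passed by edgeR (0 of 9), and 1, Hbegf, had an unadjusted p under 0.05. Most of these dosages varied little between tumors. The SD in log2 units was 0.022 for Chr11, 0.015 for Chr10 and Chr5, 0.019 for Chr6, 0.025 for Chr8 and 0.035 for Chr18. It was 0.096 for Chr1, which ranged from -0.30 to 0.07. With so little variation outside Chr1, these fits cannot decide whether the members there follow their chromosomes. On Chr1, the slope of Erbb4 was 2.12 (standard error 1.70, adjusted p = 0.623 from edgeR), with r = 0.28. Without Lo 8 and Hi 7 the r of Erbb4 was -0.17 and the slope -1.85. Of all genes, 0.00572% passed with the dosage of Chr11 (Erbb2 and Egfr), 0.509% with Chr10 (Erbb3), 1.57% with Chr1 (Erbb4), 2.58% with Chr5 (Areg and Btc), 1.16% with Chr8 (Nrg1), 6.29% with Chr6 (Tgfa) and 1.05% with Chr18 (Hbegf). The slope of Erbb2 on Chr11 dosage was 0.51 (standard error 1.58, adjusted p = 0.926 from edgeR), with r = 0.11 (permutation p = 0.657) and rho = 0.38 (permutation p = 0.095). Its r was 0.73 within Lo and -0.21 within Hi, and 0.56 without Lo 8 and Hi 4, where the slope was 6.32 with an adjusted p of 0.327 from edgeR. Hbegf on Chr18 came closest to the threshold, with r = 0.50 and an adjusted p of 0.237 from edgeR.

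Because 5 of the 6 genes most like Egfr and Erbb4 lay on Chr4, the dosage of Chr4 was added as a covariate after those values were seen. The chromosome was thus picked in these same tumors, so the relations of Egfr and Erbb4 with its dosage are in part built in. Their p-values below are not an independent test. No member lies on Chr4. The paper reports clonal loss of a Chr4 copy in every tumor it karyotyped, and Chr4 expression skewed toward FVB alleles. The dosage is centred expression, so it compares these tumors with each other and does not give their copy number. A value near the median therefore does not stand for an unchanged Chr4, nor a high value for a gain. The dosage was computed from 739 genes and ranged from -0.21 log2 units (Lo 2) through a median of -0.01 to 0.37 (Hi 5), with the next highest at 0.17 (Hi 2). In this fit 6.12% of all genes passed, 402 of the 1097 genes on Chr4 among them. The 739 genes that define the dosage are part of these 1097, so that count is in part built in. Of the 9 members, 3 passed. Erbb4 rose by 4.40 log2 units per log2 unit of Chr4 dosage (standard error 0.763, adjusted p = 0.000745 from edgeR), and remained past the threshold with each tumor left out. Its r was 0.81 (permutation p = 4e-05), with rho = 0.86 (permutation p = 2e-05), an r of 0.76 without the 2 tumors farthest from the median (Lo 2 and Hi 5), 0.89 within Lo and 0.74 within Hi.

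Egfr rose by 1.47 (standard error 0.322, adjusted p = 0.00553 from edgeR), with r = 0.71 (permutation p = 0.00044) and rho = 0.65 (permutation p = 0.00265); r was 0.55 without Lo 2 and Hi 5, 0.49 within Lo and 0.84 within Hi. Without Hi 5 it no longer passed (adjusted p = 0.112 from edgeR). Hbegf fell by 1.53 (standard error 0.453, adjusted p = 0.0443 from edgeR), with r = -0.62 (permutation p = 0.0034) and rho = -0.54 (permutation p = 0.0152); r was -0.61 without these tumors, -0.62 within Lo and -0.77 within Hi. It stayed past the threshold in 7 of the 20 fits that left out 1 tumor, with adjusted p values of 0.015 to 0.268. For Btc the r was 0.52 (adjusted p = 0.154), and Erbb2 (r = 0.03) and Erbb3 (r = -0.14) showed no relation that passed. Relations with Chr4 dosage were computed for 9 members.

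When Chr4 dosage was added to the fit with Egfr, the slope of Erbb4 was 1.23 in place of 1.98 and that of Btc 0.90 in place of 0.88, and neither pair passed the threshold. Of the genes that rose with Egfr, 40.4% lay on Chr4, against 6.27% of all genes tested. The share was 48.8% of those that rose with Erbb4, 22.2% with Btc, and 61.6% of those that fell with Hbegf. In the opposite directions it was 1.63% with Egfr, 2.03% with Erbb4, 2.48% with Btc and 1.71% with Hbegf.

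**Figure D5:**
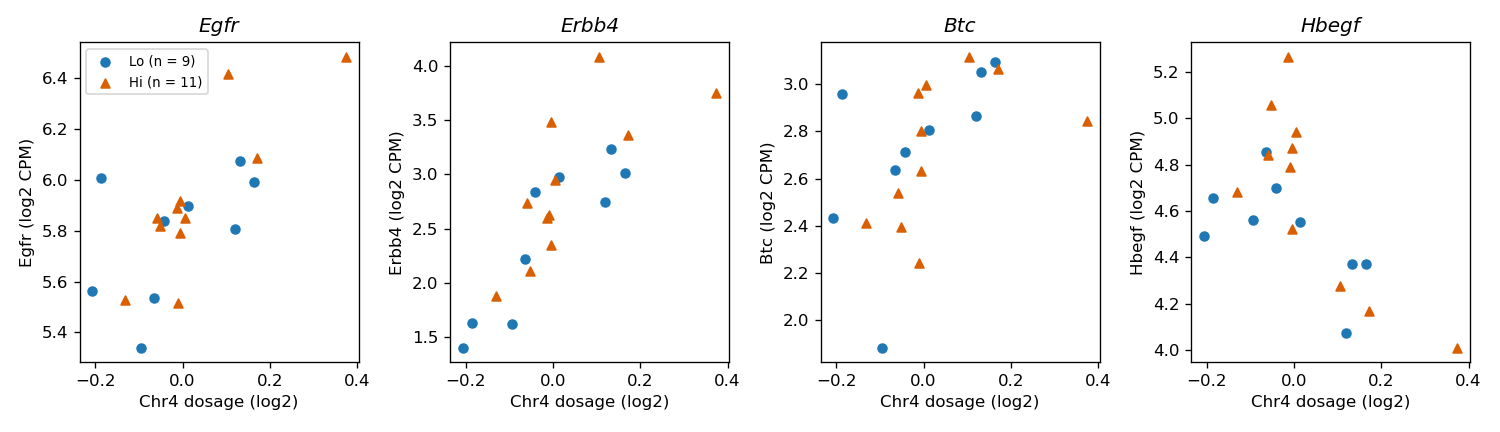
Each point is 1 tumor, with the Chr4 dosage in log2 units on the x axis and the log2 CPM of the named gene on the y axis; circles are the 9 Lo and triangles the 11 Hi tumors. Erbb4 and Egfr are higher and Hbegf lower at higher dosage, and the tumor at the far right is Hi 5.

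Lo and Hi tumors were compared for all genes with edgeR. None of the 9 members that passed the filter differed (0 of 18883 genes passed an adjusted p of 0.05, which is 0%, with 1045 at an unadjusted p under 0.05; DESeq2 gave 1 gene, no member). Areg was at 4.24 ± 4.02 CPM (SD, n = 9) in Lo and 2.51 ± 1.17 CPM (SD, n = 11) in Hi tumors, and its log2 fold change of Lo over Hi was 0.76 (standard error 0.379, adjusted p = 0.904 from edgeR), or 0.28 without Lo 11. Erbb4 was at 5.80 ± 2.52 (SD, n = 9) and 8.28 ± 4.16 CPM (SD, n = 11), a log2 fold change of -0.50 (adjusted p = 0.984 from edgeR). For Tgfa the values were 67.1 ± 8.65 (SD, n = 9) and 59.2 ± 7.38 CPM (SD, n = 11), a log2 fold change of 0.19 (adjusted p = 0.857 from edgeR). Erbb2 was at 194 ± 22.5 (SD, n = 9) and 197 ± 21.0 CPM (SD, n = 11). The groups overlapped for every member.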

How the data were processed

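The authors sequenced RNA of 20 tumors from both fragment ends, then trimmed the reads and aligned them to mm10. The submitters' processing notes name TopHat2 2.0.12 and featureCounts 1.4.4; whether counting used strand, and which annotation release, is not given in the sources used here, so overlapping genes (1 row each overlapping Egfr and Erbb3, 2 overlapping Erbb2, Mien1 among them, and 8 overlapping Erbb4) are uncertain. The deposited values are raw counts of reads per gene for each tumor, with nothing pooled and no normalization. Gene lengths were taken from the table, and RPKM and CPM were computed here. Depth per tumor limits Ereg and Nrg1 most.

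Relations and groups were tested in R 4.3.3 with edgeR 4.0.16 (its quasi-likelihood test after filterByExpr and TMM scaling; p-values adjusted by Benjamini-Hochberg over all genes, threshold 0.05; log2 CPM with a prior count of 2). Alternatives used DESeq2 1.42.0, its size factors, no filter, a prior count of 0.5, the Lo or Hi label as a covariate and fewer tumors. Permutation tests were two-sided with 100000 permutations, in Python with numpy and scipy. Correlations over the 20 tumors were computed for 36 pairs of members. All 10 members are named. Pairs past the threshold, pairs of Erbb2 with the other receptors, pathway genes past the threshold in the Erbb2 fit and the 3 genes most like each member were named by rule, and other named genes were chosen after their values were seen, as was every analysis of Chr4. The members and lists were chosen with earlier results of these data known. Scripts were tested on simulated data. With Egfr as covariate, 186 of 200 genes with a slope of 2 or -2 were recovered (17492 genes, 11 unchanged genes called). For a log2 difference of 1 between the groups, 173 of 200 were recovered (17492 genes, 5 unchanged genes called). The log2 CPM of Egfr had an SD of 0.285, against 0.158 for Erbb2 and 0.120 for Erbb3. Recovery with other members as covariate, or at smaller slopes, was not tested. Adgre1 was matched by its older symbol Emr1. P-values measure the spread between tumors.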

Additional observations from a re-analysis of the deposited data

Results flagged for a closer look

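Areg in Lo 11 was at 10.7 RPKM, while the next highest Lo tumor was at 5.47 RPKM. This was the only gap between an extreme tumor and its nearest neighbour, relative to the range of the 9 Lo tumors, above the limit for 9 values among the 10 genes; the 11 Hi tumors were not examined in this way, and chance gives about 0.5 such gaps in 10 groups. The gaps were taken in RPKM, and a log scale was not examined in this way. In log2 CPM, Areg was at 3.82 in Lo 11, 2.76 in Lo 9 and 0.56 in Lo 1, the lowest Lo tumor. Without Lo 11, the log2 fold change of Areg of Lo over Hi tumors was 0.28 in place of 0.76, and it passed the threshold in neither fit.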

How the results depend on the processing

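The order of the 10 medians was the same with totals that left out Yam1 and AY036118 and in TPM. The count of pairs past the threshold was 2 under size factors, no filter, a prior count of 0.5, the Lo or Hi covariate and without the 2 farthest tumors, and 3 with DESeq2. Relations of a cell type marker with a member past the threshold numbered 9 with size factors, 11 with the Lo or Hi covariate, and 4 in place of 9 when the pair of tumors most distant from a member's median was left out. For Chr4 dosage, 3 members passed under DESeq2, its size factors and the Lo or Hi covariate; without the 2 farthest tumors 1 did (Erbb4), and leaving out 1 tumor gave 1 to 3. Without Hi 5 the count was 1.

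Between Lo and Hi tumors, 0 members passed under every alternative, the replicate block included, and leaving out 1 tumor gave 0 each time. The numbers of the labels were not taken as pairs, since same-numbered tumors had correlations of -0.39 to 0.23 and 3 of 9 were over 0.1; with the replicate block, the difference of Erbb2 was 0.032 and that of Btc -0.014, both with the sign changed. For Btc it was -0.0033 with DESeq2, -0.0034 with its size factors and -0.0011 without the filter. Leaving out 1 tumor moved the difference of Erbb2 from -0.037 to 0.021, that of Nrg1 from -0.10 to 0.27 and that of Btc from -0.043 to 0.086. With Chr4 dosage, the slope of Erbb2 was -0.37 without the 2 farthest tumors and -0.15 to 0.16 leaving out 1 tumor, and that of Areg -2.79 to 0.095. The cause was not tested.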

Other observations

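Of 18 relations of a member with the total count or with the percentage taken by Yam1 and AY036118, Erbb3 had the highest r with that percentage, 0.57 (permutation p = 0.00786; rho 0.57, permutation p = 0.0106). For the total count the r of every member lay between -0.19 and 0.20.

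Hi 5 had the highest Egfr and Nrg1, the lowest Areg and Hbegf and the highest Chr4 dosage of the 20 tumors.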
